A study of Mus musculus with 24 samples.

Results

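Costimulatory and checkpoint ligands are surface proteins with which a macrophage or dendritic cell sets the outcome of its contact with a T cell. The set described here was chosen by gene name, with earlier results of these data known. Its counts beside the share of all tested genes are therefore a description. The set held Cd40, Cd80, Cd86, Cd83, Cd274, Pdcd1lg2 and Icosl, which are 7 of the 24273 genes in the table. Of these, 6 had values high enough to be tested, among 13901 genes tested in all, and Pdcd1lg2 did not.

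Cells were bone marrow-derived macrophages (BMDMs) of C57BL/6 mice, grown from femur marrow in L cell-conditioned medium, and were analysed in bulk by RNA sequencing. The control group was labelled LysM-Cre, which is Cre recombinase placed in the Lyz2 locus and active in myeloid cells, and the other genotype was labelled FosKO, a cross of LysM-Cre with floxed Fos alleles. The series' design text gives the controls as LysM-Cre alone, whereas the study's text adds a floxed Fos allele to them, and the values could not settle which applied. Each genotype was left untreated (0 h) or was given lipopolysaccharide (LPS), a bacterial agonist of TLR4, for 0.5, 1 or 2 h (100 ng/ml), with 3 libraries in each of the 8 groups. The study's methods call the libraries biological replicates, but no source used here says that they came from separate animals or cultures, so p-values measure the spread between these libraries, and the age of the mice is not given in the sources used here.

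CD80 and CD86 bind CD28, which supports T cell activation, and CTLA-4, which restrains it. CD40 is a receptor of the TNF receptor family that T cells engage through CD40 ligand to activate the antigen-presenting cell, ICOS ligand engages ICOS, and CD83 is a marker of activated antigen-presenting cells that stabilises MHC class II and CD86 at the surface. PD-L1 (Cd274) and PD-L2 (Pdcd1lg2) bind the inhibitory receptor PD-1, and Cd274 is a well known target of interferon signalling.

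Values are deposited normalised log2 values, so a difference of 1 is a doubling, and the number of reads behind each value is not known here. The level of the targeted gene did not check the labels, since a gene-level value cannot show whether a deleted part of Fos is missing. Fos was higher in the libraries labelled FosKO than in LysM-Cre at 0 h, with a mean of 12.60 against 11.11, and also at 1 and 2 h. It was lower only at 0.5 h, with 12.75 against 13.52. The course of Fos also differed with the label. After 0.5 h of LPS it rose by 2.41 in LysM-Cre, whereas its change in FosKO-labelled libraries was 0.15 (adjusted p = 0.396), a difference in response of -2.26 (adjusted p = 1.38e-09 by limma). Directions below are given by the label. Lyz2, the locus that carries Cre, was at a mean of 10.94 in LysM-Cre and 16.10 in FosKO-labelled libraries at 0 h. Its difference was 5.17, 4.89, 4.98 and 5.06 at 0, 0.5, 1 and 2 h, so the groups differed in Lyz2 as well as in the Fos label. The part of this locus in the genotype differences below was not tested. Rn18s-rs5, an 18S ribosomal RNA gene, ranged from 18.57 to 19.39 in 19 libraries (the high 18S set) and from 16.65 to 17.00 in the other 5 (the low 18S set), which belong to the 0.5 and 1 h groups of both genotypes. Differences within each set, over 1 or 2 libraries a group, are given for those times, and the part of 18S in the other results was not tested beyond the alternatives below. In bulk RNA, fewer cells of a type and less RNA per cell cannot be told apart.

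On the GRCm38 mouse build, Cd40 lies at chr2:165055627-165072948, Cd83 at chr13:43784775-43803132 and Icosl at chr10:78069302-78083913, all on the plus strand. Cd80 (chr16:38455561-38496335, plus strand) and Cd86 (chr16:36603869-36666081, minus strand) share chromosome 16 and are 1789479 bases apart. Cd274 (chr19:29367455-29388095) and Pdcd1lg2 (chr19:29410919-29471161) are neighbours on the plus strand with 22823 bases between them. Antisense genes overlap both of the latter, AC119228.1 at Cd274 and A930007I19Rik at Pdcd1lg2, and the study states that reads were strand-specific.

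RefSeq promoters on GRCm38.p6 were at hand for 4 of the 7 genes, Cd80, Cd274, Pdcd1lg2 and Icosl. They are shown because the study concerns an AP-1 subunit. Another reason is that at 2 h of LPS Cd274 was higher and Icosl lower in the FosKO-labelled libraries. Each line holds the 250 bases before the RefSeq transcription start on the plus strand, with matches to a searched motif in capitals. For Cd80 and Icosl that start lies inside the GRCm38 gene span given above. The windows were Cd80 at chr16:38458683-38458932, Cd274 at chr19:29367188-29367437, Pdcd1lg2 at chr19:29410669-29410918 and Icosl at chr10:78069118-78069367.
Cd80: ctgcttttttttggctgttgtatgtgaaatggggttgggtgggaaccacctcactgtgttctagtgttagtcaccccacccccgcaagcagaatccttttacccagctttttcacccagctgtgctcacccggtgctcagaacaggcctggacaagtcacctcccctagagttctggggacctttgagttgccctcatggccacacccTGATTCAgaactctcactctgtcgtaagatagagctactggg
Cd274: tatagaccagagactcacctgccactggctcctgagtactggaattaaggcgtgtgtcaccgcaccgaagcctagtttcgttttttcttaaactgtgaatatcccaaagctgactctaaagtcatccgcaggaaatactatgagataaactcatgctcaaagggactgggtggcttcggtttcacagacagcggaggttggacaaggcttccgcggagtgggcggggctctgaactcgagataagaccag
Pdcd1lg2: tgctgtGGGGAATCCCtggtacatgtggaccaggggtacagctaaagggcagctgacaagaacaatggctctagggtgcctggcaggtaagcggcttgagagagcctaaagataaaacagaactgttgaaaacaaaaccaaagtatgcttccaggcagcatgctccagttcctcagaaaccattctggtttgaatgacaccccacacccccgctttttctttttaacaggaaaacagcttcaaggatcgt
Icosl: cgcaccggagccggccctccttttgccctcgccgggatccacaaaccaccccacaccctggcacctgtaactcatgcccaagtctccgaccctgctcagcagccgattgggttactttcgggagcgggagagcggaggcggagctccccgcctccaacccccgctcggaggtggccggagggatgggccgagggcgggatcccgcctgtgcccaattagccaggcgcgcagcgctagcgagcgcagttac

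The motifs searched on both strands were the AP-1 site TGANTCA, the interferon response element (GAAA repeated after any 2 bases), the interferon-gamma activated (GAS) element TTCNNNGAA and the kappa B element of NF-kB. Cd80 held 1 AP-1 match, TGATTCA, at bases -42 to -36 from the start, and 6.75% of the 32851 RefSeq promoters of this length held such a match. Pdcd1lg2 held 1 kappa B match at bases -244 to -235, against 3.90% of all promoters. The Cd274 and Icosl windows held none of the 4 letter patterns, and across all promoters the interferon response element was found in 2.98% and the GAS element in 7.02%. A match is a run of letters and not a shown site.

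The first comparison asked how the genotypes differed at each time, and Cd86 and Cd274 stood higher in the FosKO-labelled libraries at all 4 times. Before LPS, Cd40, Cd86, Cd83 and Cd274 were higher, which is 4 of the 6 genes tested, and 19.5% of all tested genes were called higher in that comparison (limma with Benjamini-Hochberg adjustment over all tested genes, adjusted p under 0.05). At 0.5 h, Cd40, Cd80, Cd86 and Cd274 were higher, again 4 of 6, against 21.2% of all tested genes. By 1 h only Cd86 and Cd274 were called among the 6, both higher, against 18% of all tested genes. With only the compared groups in the fit, Cd40 and Cd80 (higher) and Cd83 and Icosl (lower) also passed at that time. At 2 h, Cd80, Cd86 and Cd274 were higher (24.4% of all tested genes were) and Cd83 and Icosl were lower (20.3% of all tested genes were). The median difference of the 6 genes was 0.62, 0.64, 0.24 and 0.35 at the 4 times in order, where the median of all tested genes lay between -0.0032 and 0.0040. A lack of overlap between the genotypes, given by gene below, was common. All FosKO-labelled libraries lay above all LysM-Cre libraries for 24%, 25.9%, 23.7% and 28.9% of tested genes at these times. They lay below for 20.5%, 24.9%, 21.3% and 25.1%.

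**Figure D1:**
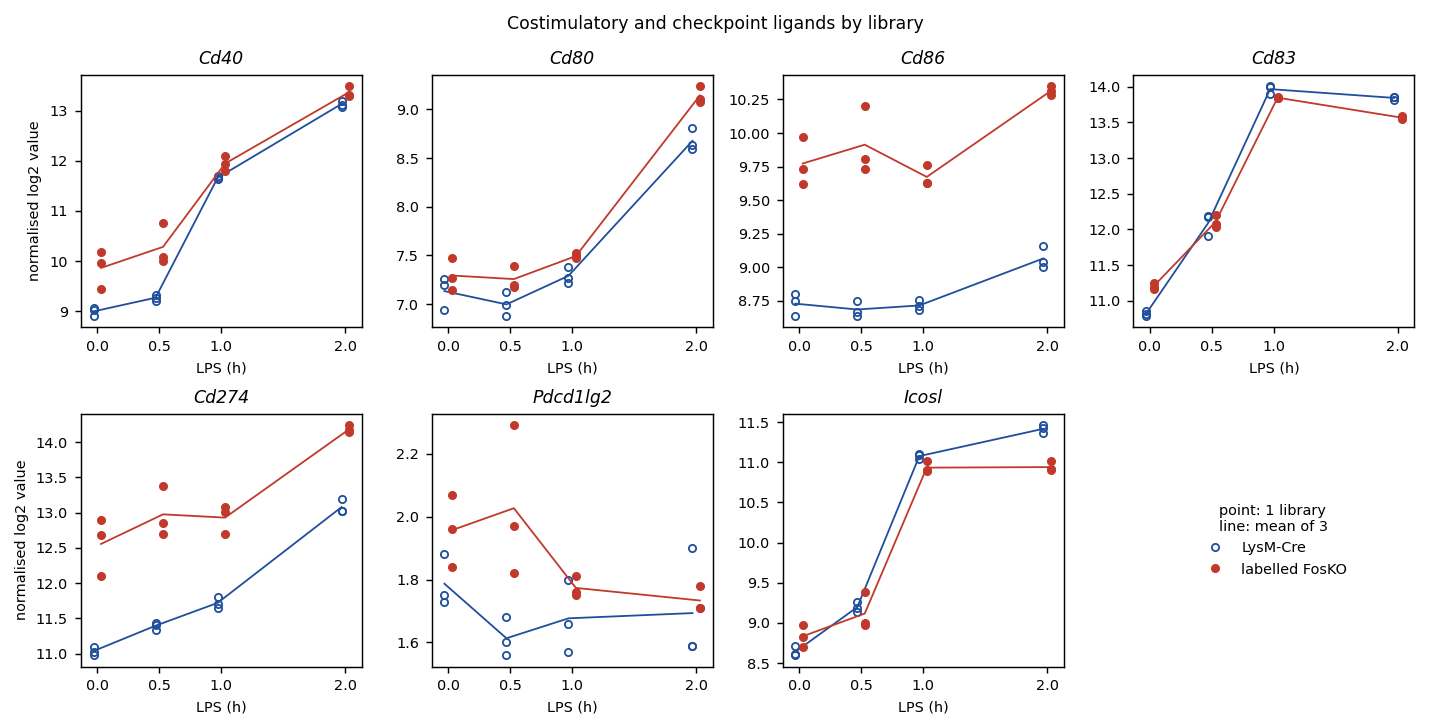
Normalised log2 values (vertical axes) of the 7 genes against hours of LPS (horizontal axes), with open blue points for LysM-Cre libraries, filled red points for libraries labelled FosKO, and lines through the means of 3 libraries. Cd86 and Cd274 lie higher in every FosKO-labelled library at each time, whereas Cd83 and Icosl cross from higher or overlapping at 0 h to lower at 2 h.

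**Figure D2:**
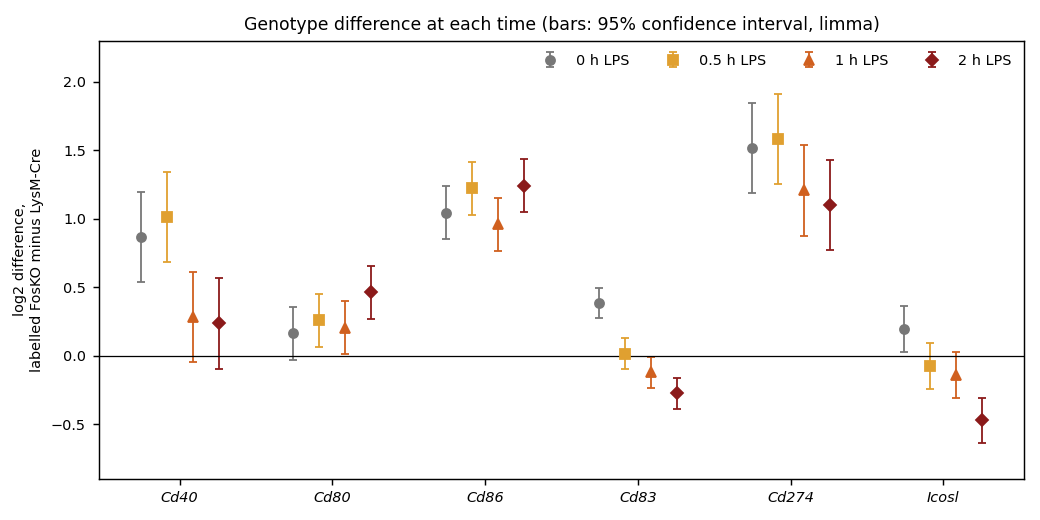
Difference in log2 value, libraries labelled FosKO minus LysM-Cre (vertical axis), for the 6 genes tested, with 1 symbol for each time of LPS and bars for 95% confidence intervals from limma. The intervals of Cd86 and Cd274 lie above 0 at all 4 times, and those of Cd83 and Icosl lie below 0 at 2 h.

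Cd40, the receptor through which T cells license the macrophage, was called between the genotypes at 0 and 0.5 h and not at 1 or 2 h, and the tests of a change in that difference with LPS, given below, did not pass. At 0 h the LysM-Cre libraries were at 9.06, 9.02 and 8.91 and those labelled FosKO at 9.45, 9.96 and 10.18. At 0.5 h the values were 9.21, 9.33 and 9.27 in LysM-Cre against 10.00, 10.09 and 10.76. All FosKO-labelled libraries lay above all LysM-Cre libraries at both times, and they were also more spread out, with an SD of 0.38 against 0.08 at 0 h. The difference was 0.87 (SE 0.16, adjusted p = 2.05e-04 by limma), or 1.82-fold, at 0 h and 1.01 (SE 0.16, adjusted p = 2.85e-05) at 0.5 h. Within the high and the low 18S set it was 1.15 and 0.73 at 0.5 h.

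LPS raised Cd40 steeply in both genotypes. At 1 h Cd40 was at 11.65, 11.70 and 11.63 in LysM-Cre and at 11.80, 11.93 and 12.10 in FosKO-labelled libraries. At 2 h it was at 13.08, 13.12 and 13.20 against 13.30, 13.31 and 13.49. The groups still did not overlap, but the differences of 0.28 (adjusted p = 0.186) and 0.23 (adjusted p = 0.251) did not pass the test by limma, in which all groups share 1 estimate of the spread. With only the compared groups in the fit they did, at adjusted p = 0.0214 and 0.00464. The 1 h difference was 0.37 in the high and 0.13 in the low 18S set. Cd40 rose 17.6-fold from 0 to 2 h in LysM-Cre (log2 change 4.13, SE 0.16) and 11.3-fold in FosKO-labelled libraries (3.50, SE 0.16).

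Cd80 and Cd86, the pair of ligands for CD28 and CTLA-4, behaved differently from each other. Cd86 was at 8.75, 8.80 and 8.64 in LysM-Cre and 9.62, 9.73 and 9.97 in FosKO-labelled libraries at 0 h. At 0.5 h the values were 8.67, 8.64 and 8.75 against 9.81, 9.73 and 10.20, and at 1 h 8.71, 8.68 and 8.76 against 9.63, 9.76 and 9.63. At 2 h they were 9.00, 9.04 and 9.16 against 10.31, 10.28 and 10.35. No libraries of the 2 genotypes overlapped at any time, and every unstimulated FosKO-labelled library lay above every LysM-Cre library at 2 h. The difference of Cd86 was 1.04 before LPS (adjusted p = 3.72e-08) and 1.22 (2.83e-09), 0.96 (1.05e-07) and 1.24 (1.64e-09) after 0.5, 1 and 2 h, each with an SE of 0.09 by limma. These are 2.06-, 2.33-, 1.94- and 2.37-fold. Within the high and the low 18S set the 0.5 h difference was 1.31 and 1.06 and the 1 h difference 0.99 and 0.91.

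The response of Cd86 to LPS was the smallest of the 6 genes at 2 h in both genotypes. Its change from 0 h was -0.04 and -0.01 at 0.5 and 1 h in LysM-Cre, neither past the test. At 2 h it had risen by 0.34 (SE 0.09, adjusted p = 0.00333 by limma) in LysM-Cre and by 0.54 (SE 0.09, adjusted p = 3.62e-05) in FosKO-labelled libraries. For Cd86 the genotype difference at 0 h was thus larger than the change over 2 h of LPS in either genotype, although these comparisons share libraries and their difference was not tested.

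Cd80 stood at 7.20, 6.94 and 7.26 in LysM-Cre and 7.14, 7.27 and 7.47 in FosKO-labelled libraries at 0 h, which overlap. At 0.5 h it was at 6.99, 6.88 and 7.12 against 7.20, 7.18 and 7.39, and at 1 h at 7.38, 7.22 and 7.27 against 7.47, 7.49 and 7.52. At 2 h the values were 8.63, 8.59 and 8.81 against 9.11, 9.08 and 9.24. The FosKO-labelled libraries were higher without overlap from 0.5 h on, by margins that were small before 2 h. The difference was 0.16 (adjusted p = 0.191) at 0 h, 0.26 (SE 0.09, adjusted p = 0.0311) at 0.5 h, 0.20 (adjusted p = 0.0996) at 1 h and 0.46 (SE 0.09, adjusted p = 3.57e-04) at 2 h by limma. The 1 h difference passed with only the compared groups in the fit (adjusted p = 0.0487) and with a replicate block across groups (0.0249). The call for Cd80 at 0.5 h was lost with only the compared groups in the fit (adjusted p = 0.0633) and without LysM-Cre replicate 1 (0.0680), LysM-Cre replicate 2 (0.141) or FosKO-labelled replicate 3 (0.158) of that time. The difference itself was 0.26, 0.26, 0.20 and 0.19 under these alternatives in order. Within the high and the low 18S set the 0.5 h difference was 0.35 and 0.08 and the 1 h difference 0.12 and 0.22.

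Most of the rise of Cd80 came between 1 and 2 h in both genotypes. It did not pass the test at 0.5 or 1 h of LPS, although the 1 h change passed with quantile normalisation in LysM-Cre (0.26, adjusted p = 0.0377) and in FosKO-labelled libraries (0.25, adjusted p = 0.0442). In the latter it also passed with a replicate block across groups (0.0310) and without replicate 3 of 0 h (0.0288). By 2 h Cd80 had risen 2.92-fold in LysM-Cre (log2 change 1.55, SE 0.09) and 3.60-fold in FosKO-labelled libraries (1.85, SE 0.09). Per kilobase of exon, the linear value of Cd86 was 2.63 to 3.67 times that of Cd80 in the 0 h LysM-Cre libraries and 5.57 to 5.72 times in the 0 h FosKO-labelled libraries. At 2 h the ratio of Cd86 to Cd80 was 1.29 to 1.38 and 2.18 to 2.32. It was lower at 2 h than at 0 h in both genotypes and higher in FosKO-labelled libraries at both times, with no overlap.

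Cd83 had the largest change at 0.5 h of LPS in both genotypes, and Icosl was the other gene of the set called at that time. At 0 h it was at 10.79, 10.85 and 10.82 in LysM-Cre and 11.16, 11.20 and 11.25 in FosKO-labelled libraries. At 0.5 h it had reached 11.91, 12.19 and 12.17 against 12.04, 12.08 and 12.20. The genotypes did not overlap before LPS, with FosKO-labelled libraries higher, and they overlapped at 0.5 h. At 1 h Cd83 was at 13.90, 14.01 and 13.99 against 13.84, 13.84 and 13.86, and at 2 h at 13.86, 13.86 and 13.81 against 13.55, 13.56 and 13.59. The order was thus the opposite at 1 and 2 h, again without overlap.

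The genotype difference of Cd83 was 0.38 (SE 0.05, adjusted p = 1.10e-05 by limma) at 0 h, 0.01 (adjusted p = 0.866) at 0.5 h and -0.12 (adjusted p = 0.0879) at 1 h. At 2 h Cd83 was lower in FosKO-labelled libraries by 1.21-fold (log2 difference -0.27, SE 0.05, adjusted p = 2.74e-04). In the high and the low 18S set the 0.5 h difference was 0.09 and -0.13 and the 1 h difference -0.05 and -0.16, so the sign at 0.5 h was not the same in both sets. The 1 h difference passed with quantile normalisation (-0.29, adjusted p = 1.14e-04), with only the compared groups in the fit (0.0342) and with a replicate block across groups (0.0416).

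LPS raised Cd83 in LysM-Cre by 1.27, 3.15 and 3.02 after 0.5, 1 and 2 h, which are 2.41-, 8.87- and 8.11-fold. In FosKO-labelled libraries the log2 changes were 0.90, 2.64 and 2.36, or 1.87-, 6.25- and 5.14-fold. Each had an SE of 0.05. Cd83 was also the one gene of the 6 that fell between 1 and 2 h, by 0.28 (SE 0.05, adjusted p = 1.50e-04 by limma) in FosKO-labelled libraries and by 0.13 (SE 0.05, adjusted p = 0.04998) in LysM-Cre. The latter call was at the threshold and was lost under 11 of the 16 alternatives. In 1 of these, the high 18S set alone, only 1 LysM-Cre library is left at 1 h, and the value was -0.064. Over the other alternatives the adjusted p of this change by limma ran from 6.77e-05 to 0.154.

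Icosl, the ligand of ICOS, followed a course close to that of Cd83. At 0 h it was at 8.61, 8.71 and 8.60 in LysM-Cre and 8.70, 8.83 and 8.97 in FosKO-labelled libraries, which overlap. At 0.5 h it was at 9.14, 9.26 and 9.19 against 8.97, 9.00 and 9.38, and at 1 h at 11.09, 11.04 and 11.10 against 10.89, 10.90 and 11.01. At 2 h the values were 11.46, 11.43 and 11.36 against 10.91, 10.90 and 11.01. FosKO-labelled libraries were lower without overlap at 1 and 2 h.

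The genotype difference of Icosl was 0.20 (adjusted p = 0.0634) at 0 h, -0.08 (0.483) at 0.5 h and -0.14 (0.184) at 1 h, none past the test by limma. The 0 h difference of Icosl passed with quantile normalisation (adjusted p = 0.0357), either replicate block (0.0434 and 0.0471) and without FosKO-labelled replicate 1 of 0 h (0.0193). At 0.5 h it was -0.21 without FosKO-labelled replicate 3 (adjusted p = 0.0131), and at 1 h it passed with only the compared groups in the fit (0.0278). At 2 h it was -0.47 (SE 0.08, adjusted p = 5.60e-05), or 1.39-fold lower. Within the high and the low 18S set the 0.5 h difference was -0.01 and -0.22 and the 1 h difference -0.14 and -0.18. From 1 to 2 h Icosl still rose in LysM-Cre, by 0.34 (SE 0.08, adjusted p = 0.00109), whereas the change in FosKO-labelled libraries was 0.01 (adjusted p = 0.922, 95% confidence interval -0.16 to 0.18).

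Cd274, which encodes PD-L1, had the largest genotype difference of the 6 genes at 0, 0.5 and 1 h. At 0 h it was at 11.10, 11.03 and 10.98 in LysM-Cre and 12.10, 12.68 and 12.89 in FosKO-labelled libraries. At 0.5 h the values were 11.44, 11.41 and 11.34 against 12.70, 12.85 and 13.38, and at 1 h 11.65, 11.70 and 11.81 against 12.70, 13.08 and 13.01. At 2 h they were 13.02, 13.02 and 13.20 against 14.14, 14.17 and 14.24. No libraries of the genotypes overlapped at any time, and each unstimulated FosKO-labelled library lay above every LysM-Cre library at 1 h.

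The difference of Cd274 was 1.52 before LPS (adjusted p = 2.77e-07) and 1.58 (1.04e-07), 1.21 (4.76e-06) and 1.10 (8.65e-06) after 0.5, 1 and 2 h, each with an SE of 0.16 by limma. These are 2.87-, 3.00-, 2.31- and 2.15-fold. Ordered by the size of the difference upwards, Cd274 was gene number 47 of the 13901 tested before LPS, and 61, 137 and 168 after 0.5, 1 and 2 h of it. Within the high and the low 18S set the 0.5 h difference was 1.69 and 1.37 and the 1 h difference 1.40 and 0.94. LPS raised Cd274 by 0.68 (SE 0.16, adjusted p = 0.00171) at 1 h and 2.05 (SE 0.16) at 2 h in LysM-Cre. In FosKO-labelled libraries the changes were 0.37 (adjusted p = 0.0794) at 1 h and 1.63 (SE 0.16, adjusted p = 1.35e-08) at 2 h. In the high 18S set alone, which leaves 1 LysM-Cre library at 1 h, the LysM-Cre change at 1 h was 0.61. The 1 h change in FosKO-labelled libraries passed under 6 of 16 alternatives, at 0.43 with an 18S term (adjusted p = 0.0341), 0.49 in the high 18S set alone (0.0387), 0.54 without replicate 3 of 0 h (0.0131), 0.49 without replicate 1 of 1 h (0.0363) and with either replicate block (0.0405 and 0.0447).

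Pdcd1lg2, the PD-L2 gene beside Cd274, lay under the minimum level for the test in every library, although 41.6% of all genes in the table had a lower mean. Its lowest value was 1.56, in LysM-Cre at 0.5 h, and its highest 2.29, in FosKO-labelled replicate 3 at 0.5 h, which are 2.95 and 4.89 on the linear scale. At 0 h it was at 1.73, 1.88 and 1.75 in LysM-Cre and 1.84, 1.96 and 2.07 in FosKO-labelled libraries, which overlap. At 0.5 h the values were 1.68, 1.60 and 1.56 against 1.97, 1.82 and 2.29, which do not overlap. The difference of means was 0.17, 0.41, 0.09 and 0.04 at 0, 0.5, 1 and 2 h and was not tested, because no library reached the minimum of 5 on the linear scale. With no minimum, the difference at 0.5 h passed the limma test (adjusted p = 0.00995). The 0.5 h difference of Pdcd1lg2 was 0.42 in the high and 0.41 in the low 18S set, and its 1 h difference was -0.01 and 0.13. No rise of Pdcd1lg2 like that of Cd274 was seen within 2 h.

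**Figure D3:**
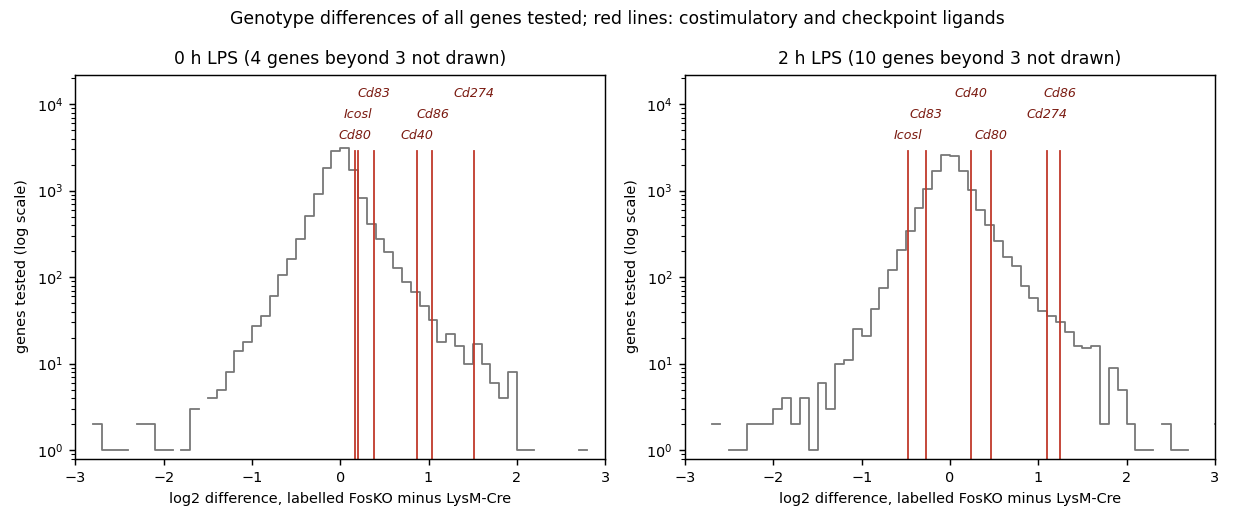
Number of tested genes (vertical axes, log scale) by log2 difference between libraries labelled FosKO and LysM-Cre (horizontal axes), at 0 and 2 h of LPS, with red lines at the 6 genes tested. At 0 h all 6 lines lie to the right of 0, with Cd274 at 1.52 farthest out, and at 2 h Icosl and Cd83 lie to the left.

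Compared per kilobase of exon on the linear scale, the order of the genes differed between the genotypes. In LysM-Cre at 0 h the medians were 703 for Cd83, 577 for Cd274, 152 for Cd40, 118 for Cd86, 84.6 for Icosl, 39.7 for Cd80 and 1.72 for Pdcd1lg2, and no neighbours in this order overlapped. In FosKO-labelled libraries at 0 h Cd274 came first at 1810, ahead of Cd83 at 915, and Cd40 (292) and Cd86 (232) overlapped. At 2 h Cd83 led in LysM-Cre at 5780, followed by Cd40 at 2610 and Cd274 at 2290, and the latter pair overlapped. In FosKO-labelled libraries at 2 h Cd274 (5090) and Cd83 (4700) led without overlap, then Cd40 at 2980.

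The second comparison asked how LPS changed the genes within each genotype, where the 3 times share the 0 h libraries. In LysM-Cre, Cd83 and Icosl were already higher at 0.5 h, 2 of 6 against 5.09% of all tested genes. Cd40 and Cd274 were called as well at 1 h, 4 of 6 against 19.2%, and all 6 were higher at 2 h against 30.6%. At 0.5 h the change in LysM-Cre was 0.27 for Cd40 (adjusted p = 0.429 by limma) and 0.36 for Cd274 (0.228). Both passed at that time with only the compared groups in the fit (0.0157 and 0.00104). In FosKO-labelled libraries Cd83 and Icosl were higher at 0.5 h (4.45% of all tested genes were), Cd40, Cd83 and Icosl at 1 h (17.6%) and all 6 at 2 h (32.6%). The early change of Icosl was 0.56 (SE 0.08, adjusted p = 5.36e-05 by limma) in LysM-Cre and 0.28 (SE 0.08, adjusted p = 0.0389) in FosKO-labelled libraries. The latter call was lost without replicate 1 (0.21, adjusted p = 0.194) or 2 (0.28, adjusted p = 0.0891) at 0 h or replicate 3 (0.15, adjusted p = 0.244) at 0.5 h of that genotype. It was also lost under 3 other alternatives, where the change was still 0.28.

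At 2 h the rises in LysM-Cre, in order of size, were 4.13 for Cd40, 3.02 for Cd83, 2.78 for Icosl, 2.05 for Cd274, 1.55 for Cd80 and 0.34 for Cd86. In FosKO-labelled libraries Cd40 rose by 3.50, Cd83 by 2.36, Icosl by 2.11, Cd80 by 1.85, Cd274 by 1.63 and Cd86 by 0.54. The median rise at 2 h was 2.41 in LysM-Cre and 1.98 in FosKO-labelled libraries, against -0.02 and 0.00 over all tested genes. Between 1 and 2 h, Cd40, Cd80, Cd86, Cd274 and Icosl rose in LysM-Cre, 5 of 6 against 27.5% of all tested genes, and Cd83 was lower, 1 of 6 against 24.8%. Over the same interval Cd40, Cd80, Cd86 and Cd274 rose in FosKO-labelled libraries, 4 of 6 against 27.2%, and Cd83 fell, 1 of 6 against 23.6%. In the high 18S set alone, which leaves 1 LysM-Cre library at 1 h, the change of Cd86 in this interval in LysM-Cre was 0.36, against 0.35 with all libraries.

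**Figure D4:**
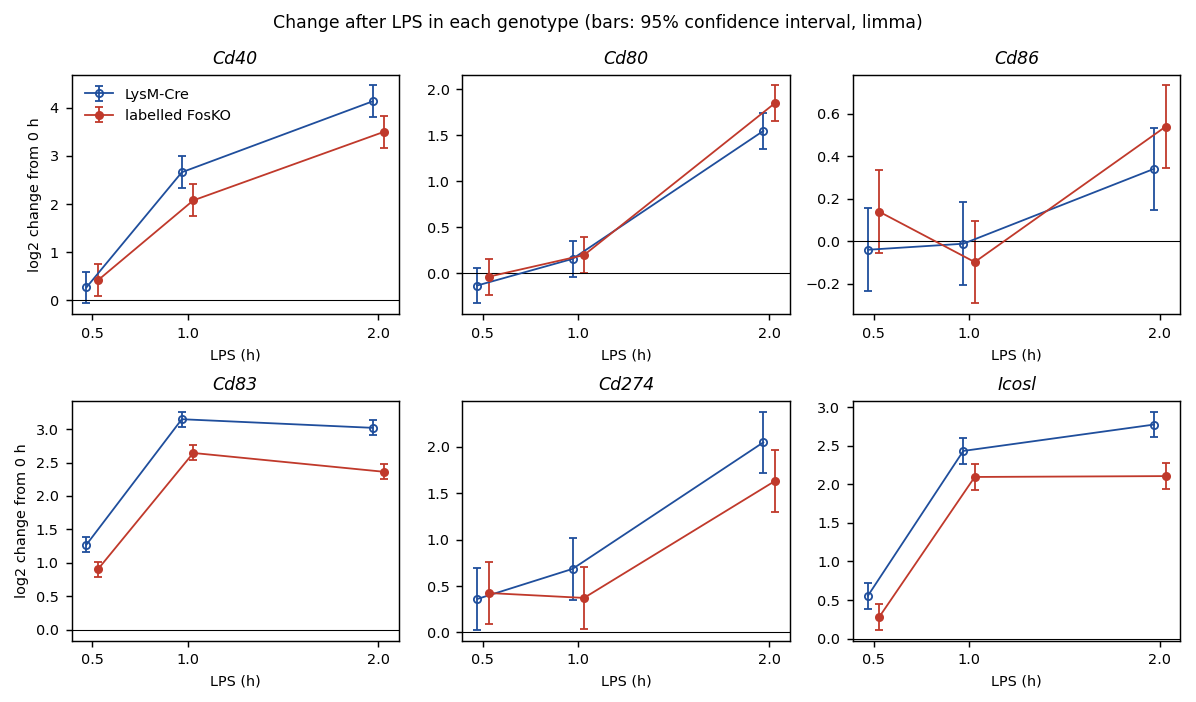
Change in log2 value from 0 h (vertical axes) at 0.5, 1 and 2 h of LPS (horizontal axes) for the 6 genes tested, with open blue points for LysM-Cre, filled red points for libraries labelled FosKO, and bars for 95% confidence intervals from limma. The red points of Cd83 lie under the blue ones at each time, and those of Icosl lie clear of them at 2 h, while the intervals of Cd86 overlap throughout.

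The third comparison tested whether the LPS response itself differed between the genotypes, by an interaction term that uses the same libraries as the comparisons above. Cd83 and Icosl responded less in FosKO-labelled libraries. At 1 h the response of Cd83 was smaller by a log2 difference of -0.50 (SE 0.08, adjusted p = 5.20e-04 by limma), and it was the 1 gene of 6 called, where 0.727% of all tested genes were called lower. In the high 18S set alone, which leaves 1 LysM-Cre library at 1 h, this difference of Cd83 was -0.43. At 2 h the response was smaller by -0.66 (SE 0.08, adjusted p = 4.29e-06) for Cd83 and by -0.67 (SE 0.11, adjusted p = 3.13e-04) for Icosl, 2 of 6 against 7.7% of all tested genes called lower. These are a response 1.58-fold smaller for Cd83 and 1.59-fold smaller for Icosl.

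No member passed at 0.5 h by limma, where 0.115% of all tested genes were called in either direction, and 2 had an unadjusted p under 0.05. These were Cd83 at -0.37 (adjusted p = 0.0720) and Icosl at -0.27 (adjusted p = 0.735). Without LysM-Cre replicate 1 of 0.5 h the value of Cd83 was -0.46 with an adjusted p of 2.35e-04. Cd40 at 1 h was at -0.58 (95% confidence interval -1.05 to -0.12, adjusted p = 0.415), and without FosKO-labelled replicate 1 of 0 h at -0.79 (adjusted p = 0.0485). Cd40 at 2 h was at -0.63 (95% confidence interval -1.10 to -0.16, adjusted p = 0.0634), which passed under 6 of 22 alternatives, with adjusted p between 0.00609 and 0.162. Without FosKO-labelled replicate 1 of 0 h, the Cd40 value was -0.84 and the number of genes called at 2 h was 4 in place of 2. For Cd274 the difference in response at 2 h was -0.42 (95% confidence interval -0.88 to 0.05, adjusted p = 0.241), for Cd80 0.30 (0.03 to 0.57, adjusted p = 0.141) and for Cd86 0.20 (-0.08 to 0.47, adjusted p = 0.366). Without FosKO-labelled replicate 1 of 0 h the value of Cd274 was -0.65 (adjusted p = 0.0217). That of Cd80 passed under 3 of 22 alternatives, which were a replicate block across groups (0.0375), leaving out LysM-Cre replicate 2 of 0 h (0.40, adjusted p = 0.0427) and leaving out FosKO-labelled replicate 3 of 0 h (0.39, adjusted p = 0.0483).

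Across the 8 group means, the genes fell into courses that were more or less alike, given here as Pearson correlations over 8 points that share libraries. Cd83 and Icosl were most alike (0.97), then Cd40 and Icosl (0.93), Cd40 and Cd83 (0.88), Cd40 and Cd80 (0.87) and Cd86 and Cd274 (0.87). Cd86 was least like Icosl (0.10) and Cd83 (0.12). Outside the set, the 3 genes nearest to Cd40 among all tested were Ube2j1 (0.997), Relb (0.997) and Nod2 (0.996), and those nearest to Cd83 were Nlrp3 (0.991), Srsf5 (0.989) and Prr14 (0.987). For Cd274 they were Slfn5 (0.997), Sppl2a (0.995) and Rilpl2 (0.994), and for Cd86 Tma7 (0.998), Il18bp (0.998) and H2-T23 (0.997). Cd80 was nearest to Szrd1 (0.999), Nxf1 (0.999) and Ssr3 (0.998), and Icosl to Tmem200b (0.998), Tnfaip8 (0.995) and Extl2 (0.992). A correlation does not show the size of a change, and the range of group means of these nearest genes ran from 0.30 for Tma7 to 2.89 for Nlrp3.

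Of 6 genes for receptors of these ligands, 2 were tested. Cd28, the T cell receptor for CD80 and CD86, lay between 10.00 and 11.32 in these macrophage libraries, whereas Pdcd1 (PD-1) lay between -0.68 and -0.42 and Icos between 0.34 and 0.72. Cd28 was higher in FosKO-labelled libraries by 0.48, 0.38, 0.46 and 0.57 at 0, 0.5, 1 and 2 h, each called (highest adjusted p = 6.38e-06 by limma), and after 2 h of LPS it fell by 0.74 in LysM-Cre cells and by 0.65 in those labelled FosKO. Rgmb, which encodes a binding partner of PD-L2, passed the test at 1 h alone of the 4 times, higher by 0.23 (adjusted p = 0.00512). Ctla4 and Cd40lg are not analysed here.

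Further costimulatory and coinhibitory ligands were described from a list of 25 names, of which 19 were tested. In FosKO-labelled libraries, 10, 12, 9 and 10 were higher and 2, 4, 5 and 3 were lower after 0, 0.5, 1 and 2 h, with medians of 0.20, 0.30, 0.13 and 0.16. Over all tested genes 19.5%, 21.2%, 18% and 24.4% were called higher and 15.9%, 19.7%, 15.9% and 20.3% lower. The largest of the higher values were those of Tnfsf15 (TL1A), at 1.19, 1.46, 1.94 and 2.00, and of Tnfsf8 (CD30 ligand), at 1.05, 1.38, 0.86 and 0.93 over the 4 times. Lgals9 (galectin-9) came next at 0 h (0.87) and 0.5 h (0.98). Tnfsf14 (LIGHT) was the lowest, at -1.54 at 1 h and -1.65 at 2 h, and all of these were called, with adjusted p of at most 1.56e-04 by limma.

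After 2 h of LPS, 15 of the 19 ligands had risen in LysM-Cre and 13 had risen in FosKO-labelled libraries. Over all tested genes 30.6% rose in LysM-Cre and 32.6% in FosKO-labelled libraries. The largest rises were those of Tnfsf15 (4.09 and 4.90), Tnfsf4 (OX40 ligand, 3.97 and 3.30) and Icam1 (3.80 and 3.25). The response at 2 h was smaller in FosKO-labelled libraries for 5 of the 19, against 7.7% of all tested genes, and larger for 1, Tnfsf15 (0.81, adjusted p = 0.0326), against 7.27%. Tnfsf4 (-0.67, adjusted p = 6.58e-04) and Icam1 (-0.54, adjusted p = 0.00348) responded less by limma, as Cd83 and Icosl did.

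**Figure D5:**
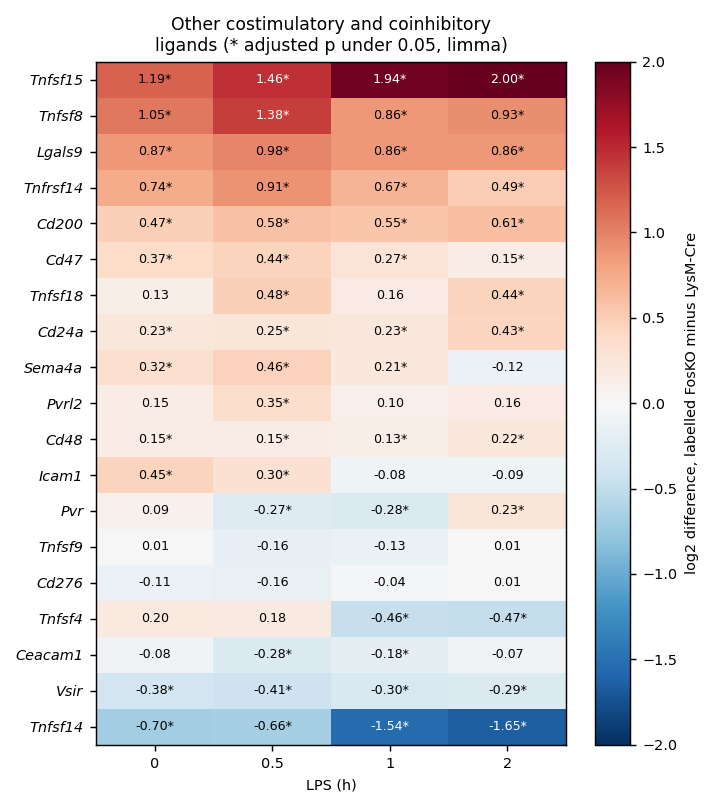
Log2 difference between libraries labelled FosKO and LysM-Cre (colour and printed value) for the 19 tested genes of the wider ligand list (rows), at 0, 0.5, 1 and 2 h of LPS (columns), ordered by their mean difference, with asterisks at an adjusted p under 0.05. Tnfsf15 is highest at each time, reaching 2.00 at 2 h, and Tnfsf14 is lowest, reaching -1.65.

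Among 13 genes of the CD40 signalling adaptors and NF-kB subunits, all tested, 8, 8, 2 and 6 were higher and 1, 1, 1 and 2 were lower after 0, 0.5, 1 and 2 h. Over all tested genes 19.5%, 21.2%, 18% and 24.4% were called higher and 15.9%, 19.7%, 15.9% and 20.3% lower. The 2 higher at 1 h lie near the share for that time. Relb, the NF-kB subunit whose course was close to that of Cd40, was higher by 0.34 at 0 h (adjusted p = 4.48e-05 by limma) and its difference at 2 h was -0.06 (adjusted p = 0.418). Map3k14 (NIK, the kinase of the noncanonical pathway) was lower by 0.19 at 0 h (log2 difference -0.19) and higher by 0.47 at 2 h, both called. Of 12 transcription factors linked to interferon signalling, all tested, 9, 10, 7 and 9 were higher after 0, 0.5, 1 and 2 h, where 19.5%, 21.2%, 18% and 24.4% of all tested genes were. Irf7 was higher by 1.20, 1.44, 1.21 and 1.05, all called.

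FosKO-labelled libraries with high Cd274 and Cd40 at 0 h were also those with high Irf7 and Irf1. In replicates 1, 2 and 3, Irf7 was at 12.71, 12.97 and 13.13 and Irf1 at 11.74, 12.01 and 12.19. Each of the 7 ligands was lowest in replicate 1 and highest in replicate 3 of that group, which were the lowest and the highest library for 36% and 38.6% of all tested genes. LysM-Cre libraries at 0 h spanned 11.65 to 11.83 for Irf7 and 11.32 to 11.43 for Irf1, below each FosKO-labelled library. The part of these factors in the ligand levels was not tested.

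Markers of macrophages were high in every library, with Adgre1 at 14.61 to 15.21, Csf1r at 14.95 to 15.28 and Cd68 at 15.05 to 15.38. Of the 8 macrophage markers listed, 7 were tested and counted, without Itgam, which has 2 entries in the table. The Itgam entry with the smaller SE (0.03) was lower in FosKO-labelled libraries after 0, 0.5 and 1 h (-0.19, -0.25 and -0.18), each called, and the other was called at none of the 4 times. Of the 7 in FosKO-labelled libraries, 3 were higher (19.5% of all tested genes were) and 3 lower (15.9% were) at 0 h and 5 higher at 2 h (24.4% were). Mertk, a receptor for the uptake of dying cells, was higher by 0.97, 1.00, 0.89 and 1.65 after 0, 0.5, 1 and 2 h (highest adjusted p = 1.25e-09 by limma). Fcgr1, an IgG receptor, was higher by 0.65, 0.85, 0.63 and 0.73, all called. Those lower at 0 h were Adgre1 (-0.15), Csf1r (-0.14) and Cd14 (-0.22). Dendritic cells carry the same ligands, and 5 of 9 dendritic cell markers were tested. Their summed linear level was 51.2 to 51.8 in LysM-Cre and 51.1 to 61.5 in FosKO-labelled libraries at 0 h, and 137 to 147 against 110.5 to 114.1 at 2 h. In FosKO-labelled libraries none, 1, 2 and none of the 5 were higher and 1 was lower, at 2 h alone. Of all tested genes 21.2% were higher at 0.5 h and 18% at 1 h, and 20.3% were lower at 2 h, so 1 of 5 is near the background. Ccr7 was higher by 0.52 at 0.5 h (adjusted p = 0.00343 by limma) and 0.46 at 1 h (0.00988), and Xcr1 by 0.42 at 1 h (0.0443). Zbtb46 rose 4.74-fold in LysM-Cre and 2.63-fold in FosKO-labelled libraries over 2 h of LPS and was lower in the latter at 2 h (-0.96, adjusted p = 1.21e-04). Xcr1 rose 3.61- and 2.96-fold. On the log2 scale the levels were 3.40 to 6.03 for Zbtb46, 3.65 to 5.76 for Xcr1, 2.87 to 4.03 for Ccr7, 1.27 to 1.82 for Flt3 and -1.98 to -1.94 for Cd209a.

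T cell markers summed to 47.4 to 53.0 in LysM-Cre and 58.7 to 60.8 in FosKO-labelled libraries at 0 h, with 2 of 6 tested, 1 of them called higher (19.5% of all tested genes were), and Cd3e at -1.18 to -0.94. At the same time B cell markers summed to 45.1 to 50.7 against 41.8 to 45.3, with 1 of 5 tested, Cd79b, which was called lower after 0.5, 1 and 2 h (-0.38, -0.29 and -0.26, highest adjusted p = 0.0433 by limma) and not at 0 h. Neutrophil and granulocyte precursor markers summed to 31.4 to 51.1 against 22.7 to 27.8, with 2 of 6 tested, both of them called lower at all 4 times (15.9%, 19.7%, 15.9% and 20.3% of all tested genes were), and Ly6g and Elane at -2.22 to -2.20, while of 4 mast cell and basophil markers none was tested. The part of other cells in the ligand differences was not tested beyond these levels.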

How the data were processed

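RNA sequencing of 24 BMDM libraries, 3 in each of 8 groups taken from the labels, was analysed from one table of 24273 genes. The deposited values were log2 values normalised by the authors, 1 per gene and library. According to the study's methods, reads were strand-specific and were aligned with STAR and counted with RSEM on RefSeq genes of mm10, although the table carries Ensembl identifiers. The submitters' processing notes name STAR 2.5.2a, RSEM 1.2.31 and DESeq2 1.16.1, and the methods name another DESeq2 version. Values as low as -2.22 with no zeros resemble a regularised log, in which differences of genes with few reads are understated, and whole reads could not be recovered. The study's methods give a typical sequencing yield, but the depth of each library is not known here.

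Comparisons were made with limma 3.58.1 in R 4.3.3 on the log2 values as deposited. Genes with a linear value of at least 5 in at least 3 libraries were kept, which left 13901. All 24 libraries entered 1 fit with 8 group means (16 residual degrees of freedom) and a variance trend, 15 comparisons were drawn, and the Benjamini-Hochberg adjustment covered every tested gene, with a threshold of 0.05. With 3 libraries against 3, an exact permutation test could not go below p = 0.1 and was not used. The fit was tested on simulated data with independent noise and the same SD per gene in every group. Groups of unequal spread, as for Cd40 at 0 h, were not simulated. Symbols were matched to the GENCODE annotation of GRCm38, which held 99.6% of identifiers, and lengths per kilobase are unions of annotated exons, which may differ from the lengths counted. Promoters came from RefSeq on GRCm38.p6, and motifs were searched in the 250 bases upstream of the start, leaving out the 50 bases after it.

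The 7 genes and all lists were chosen with earlier results of these data known. The genes named are these 7, the 3 called members of the wider ligand list with the largest absolute difference in each genotype comparison and in the 2 h response, and for each of the 6 tested the 3 genes with the highest correlation of group means, with Fos, Lyz2 and Rn18s-rs5 as checks. Genes of other lists, and Cd28, were named after their values were seen. Alternatives were other filters, normalisations and variance models, a term for or restriction to an 18S set, a replicate block, and leaving out each library in turn. Some genes of the lists are counted with their list and are not reported here by name.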

Additional observations from a re-analysis of the deposited data

Results flagged for a closer look

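The response to LPS differed between the genotypes for Cd83 and Icosl by the interaction term in limma. At 1 h the response of Cd83 was smaller in libraries labelled FosKO by a log2 difference of -0.50 (SE 0.08, adjusted p = 5.20e-04), and it kept its call under each of 22 alternatives, with values from -0.61 to -0.43. The genotype difference of Cd83 itself was 0.38 at 0 h, which was called, and -0.12 at 1 h, which was not (adjusted p = 0.0879 by limma). At 2 h the difference in response for Cd83 was -0.66 (SE 0.08, adjusted p = 4.29e-06 by limma), with values from -0.79 to -0.63. That for Icosl was -0.67 (SE 0.11, adjusted p = 3.13e-04), with values from -0.78 to -0.60. Both kept their calls under each of 22 alternatives.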

How the results depend on the processing

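Over the alternatives, 1455 of the values for the 6 genes tested kept their direction and side of the threshold, 43 came to pass it, 23 no longer passed and 27 changed sign, none of them past the threshold. Of the untested differences of Pdcd1lg2, those of genotype at 2 h (-0.015 to 0.14), LysM-Cre from 1 to 2 h (-0.088 to 0.075) and FosKO-labelled libraries at 0.5 h (-0.066 to 0.17) changed sign. With only the compared groups in the fit, the number of the 6 genes called was 6 in place of 2 for genotype at 1 h, 4 in place of 2 for LysM-Cre at 0.5 h of LPS and 1 in place of 2 for FosKO-labelled libraries at 0.5 h, where it was also 1 with no filter or no variance trend. For the response difference at 0.5 h, quantile normalisation gave 1 in place of 0. Leaving out single libraries gave 1 to 4 for FosKO-labelled libraries at 0.5 h and 3 to 5 at 1 h, and 0 to 1, 1 to 2 and 2 to 4 for the response difference at 0.5, 1 and 2 h. Every pair of same-numbered samples had deviations that correlated above 0.1 in 1 of 12 comparisons, FosKO-labelled libraries at 0.5 h of LPS, where a block changed no call of the 6 genes. In the other 11 not every pair did, and this check cannot show whether those samples share a culture or an animal. Over all 12 the correlations ran from -0.53 to 0.31. With a replicate block across groups the number called was 4 for genotype at 1 h, 5 for FosKO-labelled libraries at 1 h, 1 for the response difference at 0.5 h and 4 at 2 h, and a replicate block within genotype gave 1 for the response difference at 0.5 h. The calls gained with both blocks were Cd274 in FosKO-labelled libraries at 1 h, Icosl for genotype at 0 h, Cd83 for the response difference at 0.5 h (adjusted p = 0.0157 and 0.0244 by limma) and Cd40 for it at 2 h (0.0296 and 0.0286). Those gained across groups alone were Cd80 (0.0249) and Cd83 for genotype at 1 h, Cd80 in FosKO-labelled libraries at 1 h (0.0310) and Cd80 for the response difference at 2 h. Neither moved another count of the 6 genes by over 1.5 times. Values near 0 changed sign as follows. Leaving out single libraries gave -0.092 to 0.31 for the response difference of Cd40 at 0.5 h, -0.11 to 0.049 for Cd80 in FosKO-labelled libraries at 0.5 h, and -0.035 to 0.14 for its response difference at 1 h. For Cd86 it gave -0.058 to 0.025 in LysM-Cre at 1 h, -0.0037 to 0.24 and -0.18 to 0.0035 in FosKO-labelled libraries at 0.5 and 1 h, and -0.16 to 0.015 for the response difference at 1 h. It gave -0.075 to 0.065 for the genotype difference of Cd83 at 0.5 h, -0.16 to 0.23 for the response difference of Cd274 at 0.5 h, and -0.024 to 0.048 for Icosl in FosKO-labelled libraries from 1 to 2 h. Quantile normalisation gave -0.0048 for the response difference of Cd80 at 1 h, 0.0068 for Cd86 in LysM-Cre at 1 h, -0.059 for the genotype difference of Cd83 at 0.5 h and -0.11 for Icosl in FosKO-labelled libraries from 1 to 2 h. Median centring gave 0.012 for Cd86 in LysM-Cre at 1 h, and an 18S term gave 0.0081 for it and -0.016 for Icosl from 1 to 2 h. The high 18S set alone gave -0.038 for the response difference of Cd80 at 1 h and -0.012 for Icosl from 1 to 2 h. The cause of these changes was not tested. The depth of each library is not known here, so errors are those between 3 libraries a group, and Pdcd1lg2 lay under the minimum level for the test.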

Other observations

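The order of the replicates labelled FosKO was the same for all 7 ligands in part. Replicate 3 was the highest library for 7 of 7 in the 0, 0.5 and 2 h groups, where it was for 38.6%, 37.3% and 37.8% of all tested genes, and at 1 h the highest was replicate 2 for 3 and replicate 3 for 4. Replicate 1 was the lowest for 7 of 7 at 0 h (36% of all tested genes) and at 1 h (38.2%), where it was the one library of the low 18S set, and at 0.5 and 2 h the lowest was replicate 1 for 4 and replicate 2 for 3. The ligands are not independent of each other, the part of 18S was not tested, and no LysM-Cre library was the highest or lowest for more than 4 of 7. Cd274 spanned 0.79 between these replicates at 0 h and 0.12 in LysM-Cre, where Irf7 spanned 0.42 and 0.18.

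Tnfsf14, which encodes LIGHT, a ligand of the receptor encoded by Tnfrsf14, moved in opposite directions after 2 h of LPS. It rose by 0.50 (adjusted p = 5.16e-05 by limma) in LysM-Cre and fell by 0.45 (adjusted p = 1.66e-04) in libraries labelled FosKO, a difference of -0.96 (SE 0.13, adjusted p = 2.13e-05). Tnfrsf14 was higher in FosKO-labelled libraries by 0.74 at 0 h and 0.49 at 2 h, both called.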
